A study of Mus musculus with 10 samples.

Results

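Doubly activated marginal zone precursor B cells, sort-purified and labelled as lymph node cells, were compared across all genes with control precursors of the same label, using 4 of the 10 RNA sequencing libraries of the series. The 2 doubly activated libraries came from C57BL/6 mice that carry Rosa-NIKdeltaT3flSTOP, Rosa-Notch2ICN and CD19Cre. In these mice Cre recombinase, expressed in B cells, releases both Rosa alleles, one for the kinase NIK and one for the intracellular part of the receptor Notch2. The 2 NF-kB-activated libraries come from mice with Rosa-NIKdeltaT3flSTOP and CD19Cre, so with the NIK allele alone, and are shown beside them where a value is needed to place the Notch2 allele. The 2 control libraries are labelled wild type, so they carry neither Rosa allele nor CD19Cre. Effects of CD19Cre itself cannot be told apart from those of the activation. The study asked what joint NF-kB and Notch activation does to B cell development, transformation and plasticity, and all 3 groups are labelled pre-malignant. Whether both libraries of a group stem from different animals is not labelled. The p-values rest on the spread between libraries within each of the 5 groups of the series, which may in part be technical.

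NIK, encoded by Map3k14, is the kinase of the noncanonical NF-kB pathway. It is normally degraded through Traf3, and when it accumulates it drives processing of the Nfkb2 product p100 to p52, which enters the nucleus with Relb. Notch receptors are cut after ligand binding, and the released intracellular part joins the DNA-binding protein Rbpj and Maml coactivators at genes such as Heyl and Dtx1. In the spleen, Notch2 signalling directs B cells to the marginal zone fate, and NF-kB signalling downstream of the Baff receptor, encoded by Tnfrsf13c, sustains mature B cells.

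Library depth was 18791698 and 16380889 estimated counts in doubly activated and 16407353 and 18564306 in control libraries. Levels are given as CPM, counts scaled to the size of the library and by the TMM method. Differences are log2 fold changes of doubly activated over control ± SE, with the p-value of edgeR's quasi-likelihood test adjusted over 15583 genes. A gene was called at an adjusted p under 0.05. Across genes, which are not independent replicates, log2 levels correlated at 0.994 between the doubly activated libraries, 0.989 between the control libraries and 0.968 to 0.980 between the groups. Heavy chain V segments, which differ from one B cell to the next, were spread over many members: the most used, Ighv1-26, held 6.38% and 7.39% of heavy chain V counts in doubly activated and 6.06% and 5.58% in control libraries. The label B cell was checked on 10 B cell marker genes, which summed to 14245 and 14021 CPM in doubly activated and 14849 and 15011 CPM in control libraries. The control libraries differed from each other at many genes. Control library 2 held more macrophage RNA, and control library 1 more RNA of heat shock and immediate early genes. The Y-linked gene Ddx3y stood at 109.6 and 187 CPM in doubly activated libraries, against 59.8 and 0.653 CPM in control libraries. The labels do not give the sex of the animals, so effects of sex cannot be told apart from those of the alleles. Such differences between the control libraries are given beside the results they touch. In bulk RNA of this kind, fewer cells of a type and less RNA per cell cannot be told apart.

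The doubly activated precursors differed from control at 3089 of 15583 genes (19.8%), of which 1641 were higher (10.5% of genes tested) and 1448 lower (9.29%). Changes of over 2-fold made up 1123 of the calls (7.21%), 632 upward and 491 downward. Without doubly activated library 2 the calls numbered 1624, and scaling by library size alone changed their split to 1338 higher and 1873 lower. The median log2 fold change over all genes tested was 0, and the shares and median given here are the background for each gene list that follows. Those 45 lists name 956 genes, of which 954 are in the annotation and 913 were tested. The annotated genes that were not tested had no more than 0.816 CPM in any of the 4 libraries. Of the listed genes 353 were called, and 262 in a fit of the 2 groups alone. Counts of a list cover only its tested members. Some genes stand on several lists, so the counts of different lists are not independent.

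**Figure D1:**
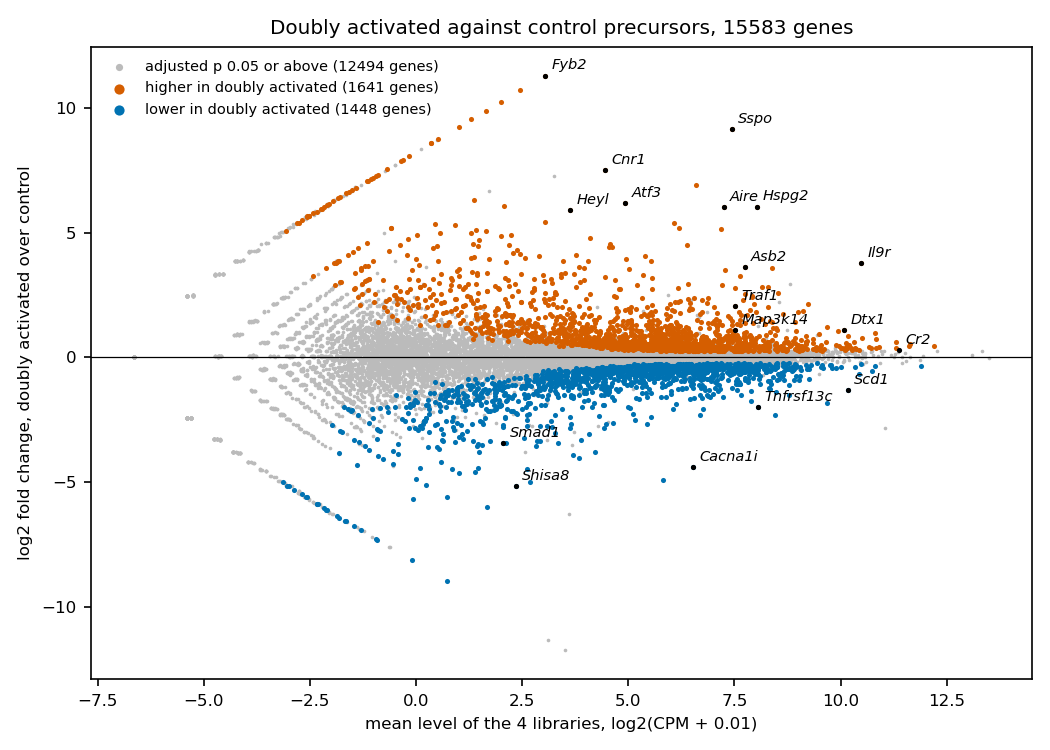
Each point is a gene, with its mean level in the 4 libraries on the x axis as log2(CPM + 0.01) and its log2 fold change of doubly activated over control on the y axis; orange and blue mark the 1641 higher and 1448 lower genes and black the genes named in the plot. Sspo, Hspg2, Aire and Il9r stand far above 0 at high mean levels, Cacna1i and Tnfrsf13c lie below it, and Cr2 lies next to it.

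The largest rises were of genes hardly detected in control precursors. Fyb2, related to the immune adaptor Fyb, had 15.1 and 17.9 CPM in doubly activated libraries and no count in either control library. Taking 3 counts over the control group as the floor, it was at least 189-fold higher. Slc47a1, a transporter of organic cations, was at least 127-fold higher on the same floor, and Slc5a5, which imports iodide, at least 70.5-fold. Fyb2 was also higher in doubly activated than in NF-kB-activated libraries, where it had 0.315 and 0.314 CPM (log2 5.68 ± 0.34, adjusted p = 5.72e-06), a comparison in which 13.9% of all genes were called, 6.62% as higher and 7.28% as lower. Fat4, a giant cadherin, showed the same order, with 4.18 and 5.95 CPM in doubly activated, 0.262 and 0.314 in NF-kB-activated and 0.0615 and 0.0544 in control libraries. Its count ratio of doubly activated over control was 86.5 (exact counting interval 23.6 to 720, for counting error alone).

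The genes of several other large rises also had levels above control with the NIK allele alone. Sspo, encoding the extracellular protein SCO-spondin, stood at 354 and 342 CPM in doubly activated, 373 and 388 in NF-kB-activated and 0.246 and 0.925 in control libraries. Its log2 fold change over control was 9.15, and 8.54 or 10.42 without control library 1 or 2. Hspg2, the basement membrane proteoglycan perlecan, reached 493 and 531 CPM in doubly activated, 784 and 715 in NF-kB-activated and 7.56 and 8.0 in control libraries. Hspg2 was higher than in control (log2 6.04 ± 0.13, adjusted p = 4.90e-11). Aire, the transcription factor known for tissue antigen expression in the thymus, had 316 and 284 CPM in doubly activated, 422 and 576 in NF-kB-activated and 4.12 and 5.11 in control libraries. Aire was higher than in control (log2 6.02 ± 0.18, adjusted p = 4.91e-09). Hence for Sspo, Hspg2 and Aire, and for Igsf3 below, the doubly activated values lay between those of the other 2 groups. The immunoglobulin superfamily gene Igsf3 had 18.7 and 13.5 CPM in doubly activated, 24.3 and 29.9 in NF-kB-activated and 0.0615 and 0.653 in control libraries, a log2 fold change over control of 4.62 or 7.89 without control library 1 or 2. Tbx19, a T-box transcription factor, was lower with the NIK allele alone, with 7.80 and 8.64 CPM in doubly activated, 1.57 and 1.20 in NF-kB-activated and 0.246 and 0 in control libraries. Its log2 fold change over control was 10.30 or 5.02 without control library 1 or 2.

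The genes that follow, of small p-values, were chosen after their values were seen. Ksr1, a scaffold of the Ras-MAP kinase pathway, stood at 265 and 309.5 CPM in doubly activated, 220.1 and 227 in NF-kB-activated and 26.6 and 24.3 in control libraries (log2 3.50 ± 0.11, adjusted p = 1.25e-09 against control). The choline kinase gene Chka stood at 626 and 616 CPM in doubly activated, 536 and 608 in NF-kB-activated and 57.7 and 47.1 in control libraries (log2 3.57 ± 0.11, adjusted p = 1.31e-09 against control). For these 2 genes both activated groups lay far above control. Serpina3g, a serine protease inhibitor of lymphocytes, had 652 and 615 CPM in doubly activated, 386 and 382 in NF-kB-activated and 108 and 103 in control libraries. Serpina3g was higher than in control (log2 2.58 ± 0.08, adjusted p = 1.31e-09) and than in NF-kB-activated libraries (log2 0.72 ± 0.07, adjusted p = 9.32e-05). Myb, a transcription factor of blood progenitors, had 81.3 and 83.5 CPM in doubly activated, 19.5 and 14.4 in NF-kB-activated and 14.0 and 10.8 in control libraries. Myb was higher than in control (log2 2.74 ± 0.15, adjusted p = 2.98e-07) and than in NF-kB-activated libraries (log2 2.28 ± 0.14, adjusted p = 5.72e-06). The giant muscle protein gene Ttn had 45.1 and 44.7 CPM in doubly activated, 197 and 187 in NF-kB-activated and 2.09 and 2.12 in control libraries. It was higher than in control (log2 4.41 ± 0.20, adjusted p = 1.86e-07) and lower than with the NIK allele alone (log2 -2.10 ± 0.14, adjusted p = 1.11e-05).

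Among the 12 largest falls, Cacna1i, Shisa8, Kctd14 and Mapk12 were called under all 14 alternative settings. Cacna1i, a T-type calcium channel subunit, had 7.91 and 8.83 CPM in doubly activated, 49.4 and 50.1 in NF-kB-activated and 134 and 218 in control libraries. Cacna1i was lower than in control (log2 -4.40 ± 0.30, adjusted p = 4.56e-05). Shisa8 had 0.167 and 0.393 CPM in doubly activated and 9.59 and 10.2 CPM in control libraries (log2 -5.16 ± 0.34, adjusted p = 9.11e-07; -5.83 without doubly activated library 2). Kctd14 had 0.334 and 0.458 CPM in doubly activated and 9.47 and 15.5 CPM in control libraries (log2 -4.97 ± 0.54, adjusted p = 9.49e-05). Mapk12, encoding a p38 MAP kinase, had 1.39 and 0.785 CPM in doubly activated and 10.6 and 15.7 CPM in control libraries (log2 -3.57 ± 0.36, adjusted p = 2.35e-05). Among abundant genes, the lipid desaturase Scd1, chosen after its values were seen, had 676 and 656 CPM in doubly activated and 1602 and 1696 CPM in control libraries (log2 -1.31 ± 0.08, adjusted p = 3.05e-07). The sorting receptor Sorl1, chosen in the same way, had 243 and 209.9 CPM in doubly activated and 621 and 682 CPM in control libraries (log2 -1.52 ± 0.09, adjusted p = 3.73e-07).

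Several of the other large falls were of genes higher in control library 2 than in control library 1. The mannose receptor Mrc1 had 0.445 and 0.589 CPM in doubly activated and 4.12 and 19.1 CPM in control libraries (log2 -4.49, and -5.21 or -2.99 without control library 1 or 2). The iron exporter Slc40a1 had 2.67 and 0.589 CPM in doubly activated and 11 and 43.4 CPM in control libraries (log2 -4.02 ± 0.84, adjusted p = 0.0196), with the call lost without doubly activated library 2 (adjusted p = 0.0944). The receptor kinase Axl had 2.45 and 0.720 CPM in doubly activated and 10.9 and 38.1 CPM in control libraries (log2 -3.91 ± 0.83, adjusted p = 0.0249), with the call lost without doubly activated library 1 or 2 (adjusted p = 0.0732 and 0.149). The adhesion molecule Vcam1 had 3.51 and 1.37 CPM in doubly activated and 11.7 and 57.4 CPM in control libraries (log2 -3.79 ± 0.93, adjusted p = 0.0425), with the call lost in the same way (adjusted p = 0.127 and 0.231). Macrophages express these 4 genes. The summed level of 20 macrophage and monocyte markers was 105 and 81.2 CPM in doubly activated and 88.0 and 302 CPM in control libraries. Like the 4 genes, the sum was highest in control library 2. Unlike them, it was higher in doubly activated library 1 than in control library 1. The part of macrophage RNA in the falls was not tested. Without doubly activated library 1 or 2 or control library 1 or 2, the log2 fold change was -5.52, -3.35, -4.68 and -2.72 for Slc40a1, -5.09, -3.32, -4.53 and -2.73 for Axl and -4.66, -3.30, -4.52 and -2.23 for Vcam1.

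The protease inhibitor Slpi had 0 and 0.196 CPM in doubly activated and 1.72 and 10.8 CPM in control libraries, a count ratio of control over doubly activated of 72.3 (exact counting interval 24.4 to 353). Its call was lost without doubly activated library 1 or 2 (adjusted p = 0.0731 and 0.0515). The transporter Abcc3 had 0.390 and 0 CPM in doubly activated and 1.48 and 8.60 CPM in control libraries (log2 -4.57 ± 1.21, adjusted p = 0.0291), with the call lost without doubly activated library 2 or control library 2 (adjusted p = 0.136 and 0.119). The integrin Itgam, found on myeloid cells, had 0 and 0.785 CPM in doubly activated and 6.58 and 3.86 CPM in control libraries (log2 -3.81 ± 0.95, adjusted p = 0.0334), with the call lost without doubly activated library 1, control library 1 or control library 2 (adjusted p = 0.0707, 0.126 and 0.0762). All 3 genes lay near 0 in at least 1 doubly activated library, so their fold changes depend on which library is left out. Without doubly activated library 1 or 2 or control library 1 or 2, the log2 fold change was -4.96, -9.92, -6.79 and -4.15 for Slpi, -9.60, -3.67, -5.33 and -2.81 for Abcc3 and -2.72, -9.64, -3.39 and -4.16 for Itgam. Crisp3, a secreted protein, had 0.445 and 0 CPM in doubly activated and 4.74 and 5.77 CPM in control libraries, and kept its call with each library left out, at log2 -9.65 or -3.54 without doubly activated library 1 or 2.

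The targeted genes were read as a check of the labels. Map3k14 (ENSMUSG00000020941, chromosome 11, 103219762 to 103267472, GRCm38) had 244 and 255 CPM in doubly activated, 220.0 and 217 in NF-kB-activated and 103 and 129.6 in control libraries. Every library with the NIK allele lay above both control libraries (log2 1.10 ± 0.10, adjusted p = 1.06e-05 for doubly activated over control). Notch2 (ENSMUSG00000027878, chromosome 3, 98013527 to 98150361) had 702 and 753 CPM in doubly activated and 652 and 689.7 CPM in control libraries, and the difference did not pass (log2 0.12 ± 0.08, adjusted p = 0.376). The files hold 1 Notch2 transcript, and the Rosa allele covers only the intracellular part. Reads of the allele and of the native gene fall on the same total, so this level is a weak check. In TPM, a scale per transcript length, Notch2 stood at 87.8 and 90.0 in doubly activated and 85.8 and 91.3 in control libraries. The highest values, 106 and 104 TPM, were those of NF-kB-activated libraries, which lack the Notch2 allele. The Notch2 level thus gives no support to the label. Cr2, the complement receptor that is high on marginal zone cells and their precursors, had 2940.3 and 2869 CPM in doubly activated and 2899 and 1874 CPM in control libraries, levels that overlap between the groups, and the difference did not pass (log2 0.28 ± 0.17, adjusted p = 0.305). Without control library 1 it was called (log2 0.63, adjusted p = 0.00142), and without control library 2 the log2 fold change was -0.0014.

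**Figure D2:**
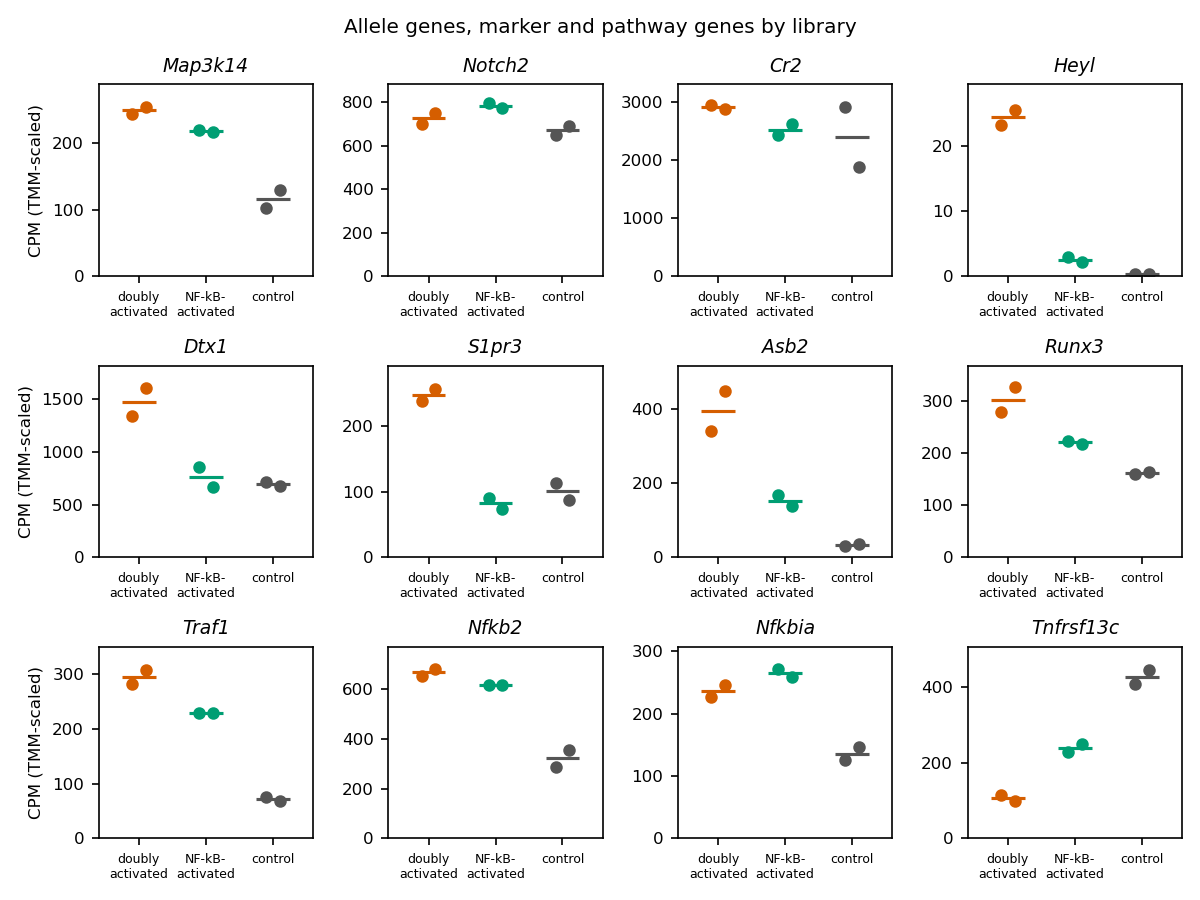
Levels in CPM on the y axis of 12 genes in each library (points) with the group mean (line), for doubly activated, NF-kB-activated and control precursors from left to right. Map3k14 parts the 2 groups with CD19Cre from control, Heyl, Dtx1 and S1pr3 part the doubly activated libraries from both other groups, Tnfrsf13c is lowest in doubly activated and highest in control libraries, and Notch2 shows no group far from the others.

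Among Notch target genes, 6 of 21 tested members rose, 2 fell and 13 did not pass, with a median log2 fold change of 0.09. The counts were 6 and 4 or 5 and 1 without doubly activated library 1 or 2, and 6 and 4 when scaled by library size alone or with an offset for effective transcript length. Heyl, a transcriptional repressor induced by Notch, had 23.3 and 25.6 CPM in doubly activated, 2.94 and 2.15 in NF-kB-activated and 0.430 and 0.381 in control libraries. It rose 59.5-fold over control (log2 5.89 ± 0.23, adjusted p = 9.86e-09) and was also higher than with the NIK allele alone (log2 3.26 ± 0.17, adjusted p = 8.86e-07). Dtx1, the Notch-binding ubiquitin ligase, had 1347 and 1609.8 CPM in doubly activated, 857 and 669 in NF-kB-activated and 719 and 681 in control libraries. NF-kB-activated and control values overlapped, and the doubly activated values lay above both groups (log2 1.08 ± 0.12, adjusted p = 7.31e-05 against control; log2 0.95 ± 0.12, adjusted p = 0.000473 against NF-kB-activated). Part of the Dtx1 total came from the retained intron transcript Dtx1-204, at 206 and 204 TPM (a scale per transcript length) in doubly activated and 70.4 and 75.2 TPM in control libraries, whereas the coding transcript Dtx1-201 stood at 268 and 324 TPM in doubly activated and 185 and 167 TPM in control libraries.

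The levels of Asb2 and Runx3 stood in steps across the groups, though NF-kB-activated libraries were not tested against control. Asb2, a ubiquitin ligase subunit, had 340.2 and 449.8 CPM in doubly activated, 167 and 137 in NF-kB-activated and 30.0 and 34.9 in control libraries. Asb2 was higher than in control (log2 3.60 ± 0.16, adjusted p = 1.43e-07) and than in NF-kB-activated libraries (log2 1.37 ± 0.14, adjusted p = 0.000177). Runx3, a lymphocyte transcription factor, had 279 and 326 CPM in doubly activated, 224 and 218 in NF-kB-activated and 159.6 and 163 in control libraries. Runx3 was higher than in control (log2 0.91 ± 0.09, adjusted p = 1.56e-05). The Notch regulator Dtx3 stood at 107 and 116 CPM in doubly activated and 56.0 and 59.6 CPM in control libraries (log2 0.95 ± 0.09, adjusted p = 1.65e-05). In the opposite direction, Nrarp, a feedback inhibitor that Notch commonly induces, had 1.67 and 1.70 CPM in doubly activated, 4.40 and 5.60 in NF-kB-activated and 4.80 and 7.89 in control libraries. Nrarp was lower than in control (log2 -1.91 ± 0.31, adjusted p = 0.000822). The classical targets Hes1 and Hes5 were not called against control but were higher than with the NIK allele alone. Hes1 had 62.9 and 79.6 CPM in doubly activated, 42.4 and 40.6 in NF-kB-activated and 79.8 and 51.7 in control libraries. Its difference from control was called without control library 1 (log2 0.46, adjusted p = 0.0299) and was -0.17 on the log2 scale without control library 2. Its difference from NF-kB-activated libraries (log2 0.78 ± 0.18, adjusted p = 0.0216) was lost without doubly activated library 2 (adjusted p = 0.152) or NF-kB-activated library 1 or 2 (adjusted p = 0.0964 and 0.126). Hes5 had 11.7 and 7.39 CPM in doubly activated, 5.71 and 5.08 in NF-kB-activated and 15.5 and 13.2 in control libraries. It was called as lower than in control without doubly activated library 1 (log2 -0.96, adjusted p = 0.0293). Its difference from NF-kB-activated libraries (log2 0.83 ± 0.25, adjusted p = 0.0456) was lost without doubly activated library 1 (adjusted p = 0.338) or NF-kB-activated library 1 or 2 (adjusted p = 0.135 and 0.232). Hey1 had 0.947 and 0.850 CPM in doubly activated and 0.492 and 0 CPM in control libraries and was not called. Myc, also on this list, had 496 and 747 CPM in doubly activated and 246 and 125 CPM in control libraries (log2 1.75 ± 0.37, adjusted p = 0.0243), a call lost without doubly activated library 2 (adjusted p = 0.115).

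Of the Notch processing and transcription complex genes, 3 rose and 5 fell of 27 (median 0.04), and 1 and 3, 1 and 1 or 1 and 3 without doubly activated library 1, 2 or control library 2, while an offset for effective transcript length turned the balance round, to 4 and 2. Fbxw7, a ubiquitin ligase subunit that marks Notch for decay, stood at 56.4 and 67.4 CPM in doubly activated and 39.0 and 36.7 CPM in control libraries (log2 0.71 ± 0.10, adjusted p = 0.000452). Maml3, a coactivator of the Notch complex, stood at 4.96 and 5.95 CPM in doubly activated and 13.8 and 13.8 CPM in control libraries (log2 -1.34 ± 0.21, adjusted p = 0.000639). Of 8 receptors and ligands tested, Jag1 was the 1 that rose, a call lost without doubly activated library 1. It rests on 26 counts over the doubly activated and 3 over the control libraries, a count ratio of 9.03 (exact counting interval 2.77 to 46.6). No receptor or ligand was called in a fit of the 2 groups alone, nor without the Notch-labelled and lymphoma libraries. Notch1 had 59.0 and 62.5 CPM in doubly activated and 53.4 and 61.0 CPM in control libraries and did not pass the test. Dll1, a ligand, had 2.39 and 1.77 CPM in doubly activated, 9.85 and 10.9 in NF-kB-activated and 2.15 and 3.48 in control libraries, and was lower than in NF-kB-activated libraries (log2 -2.31 ± 0.37, adjusted p = 0.00162).

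The noncanonical NF-kB axis moved at 7 members upward and 2 downward of 13, with a median of 0.27 (6 and 1 or 5 and 1 without doubly activated library 1 or 2). The precursor subunit Nfkb2 had 654 and 683 CPM in doubly activated, 619 and 619.8 in NF-kB-activated and 288 and 355 in control libraries. Nfkb2 was higher than in control (log2 1.05 ± 0.09, adjusted p = 8.61e-06). The receptor Cd40 had 201 and 218 CPM in doubly activated and 120.4 and 109 CPM in control libraries (log2 0.87 ± 0.09, adjusted p = 3.04e-05). Of the adaptors and ligases that restrain NIK, Birc3, Traf2 and Traf3 rose and Birc2 did not pass. Birc3 had 346 and 362 CPM in doubly activated and 247 and 239.6 CPM in control libraries (log2 0.54 ± 0.07, adjusted p = 0.00018). Traf2 had 106 and 125 CPM in doubly activated and 75.2 and 85.8 CPM in control libraries (log2 0.52 ± 0.10, adjusted p = 0.00336). Traf3 had 215 and 227 CPM in doubly activated and 182 and 185 CPM in control libraries (log2 0.27 ± 0.08, adjusted p = 0.0329), a call lost without doubly activated library 1 or 2 (adjusted p = 0.0668 and 0.199) or control library 1 or 2 (adjusted p = 0.0889 and 0.0784). Birc2 had 112 and 112 CPM in doubly activated and 97.7 and 94.7 CPM in control libraries (log2 0.22 ± 0.08, adjusted p = 0.0668). Relb, partner of p52, had 127 and 155 CPM in doubly activated and 84.6 and 105 CPM in control libraries (log2 0.57 ± 0.12, adjusted p = 0.00425), a call lost without doubly activated library 2 (adjusted p = 0.0572). The Baff receptor gene Tnfrsf13c went the other way, with 115 and 98.8 CPM in doubly activated, 227 and 249.8 in NF-kB-activated and 407 and 444 in control libraries. It was 3.98-fold lower than in control (log2 -1.99 ± 0.09, adjusted p = 4.45e-08) and lower than with the NIK allele alone (log2 -1.16 ± 0.09, adjusted p = 1.41e-05).

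Among canonical NF-kB subunits, kinases and inhibitors, 6 of 17 rose and 1 fell (median 0.23), and all 6 rises were of genes for IkB family inhibitors or for enzymes that edit ubiquitin in the pathway. The counts were 7 and 0 or 6 and 0 without doubly activated library 1 or 2, and 7 and 2 or 5 and 0 without control library 1 or 2. Tnfaip3, encoding the ubiquitin editor A20, had 391 and 613 CPM in doubly activated, 147 and 146 in NF-kB-activated and 76.5 and 64.2 in control libraries. Tnfaip3 was higher than in control (log2 2.84 ± 0.19, adjusted p = 2.01e-05) and than in NF-kB-activated libraries (log2 1.78 ± 0.19, adjusted p = 0.000603). The inhibitor Nfkbie had 283 and 305 CPM in doubly activated and 141 and 148 CPM in control libraries (log2 1.02 ± 0.09, adjusted p = 8.75e-06). The inhibitor Nfkbia had 227 and 246 CPM in doubly activated, 273 and 258 in NF-kB-activated and 125 and 147 in control libraries. Nfkbia was higher than in control (log2 0.80 ± 0.09, adjusted p = 7.74e-05). Cyld, a deubiquitinase that restrains the pathway, had 243 and 238 CPM in doubly activated and 193 and 173 CPM in control libraries (log2 0.40 ± 0.09, adjusted p = 0.00601). In all 4 genes both doubly activated libraries lay above both control libraries. Naming list members in order of p favours such separation.

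Promoter sequences of 5 of these genes are shown because the genes rose together and their windows, chosen after the letters were seen, hold a match to a motif of one of the activated pathways. Each runs 5′ to 3′ from 250 bases before to 50 bases after the first listed start site (RefSeq, GRCm38.p6), and capitals mark TGGGAA, the core bound by Rbpj, and the kappaB consensus of 10 letters, both on either strand.
Nfkb2 (chr19:46304487-46304786, plus strand): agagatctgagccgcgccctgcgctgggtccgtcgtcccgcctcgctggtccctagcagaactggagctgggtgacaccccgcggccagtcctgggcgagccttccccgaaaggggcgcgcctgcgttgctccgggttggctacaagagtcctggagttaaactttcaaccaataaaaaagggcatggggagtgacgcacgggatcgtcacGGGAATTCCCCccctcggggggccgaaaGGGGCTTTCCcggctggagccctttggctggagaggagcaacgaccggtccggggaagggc
Nfkbie (chr17:45555450-45555749, plus strand): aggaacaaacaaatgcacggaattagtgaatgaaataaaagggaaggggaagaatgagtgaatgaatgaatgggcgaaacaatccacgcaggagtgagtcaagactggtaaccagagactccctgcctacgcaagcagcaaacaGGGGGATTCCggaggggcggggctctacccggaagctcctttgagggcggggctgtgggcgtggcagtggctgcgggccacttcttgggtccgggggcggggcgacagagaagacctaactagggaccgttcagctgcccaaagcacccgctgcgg
Nfkbia (chr12:55492598-55492897, minus strand): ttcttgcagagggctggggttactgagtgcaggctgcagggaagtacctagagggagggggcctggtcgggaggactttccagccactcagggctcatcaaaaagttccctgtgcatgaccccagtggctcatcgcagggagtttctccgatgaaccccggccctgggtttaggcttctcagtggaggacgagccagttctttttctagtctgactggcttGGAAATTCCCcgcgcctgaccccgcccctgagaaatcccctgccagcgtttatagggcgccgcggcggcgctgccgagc
Tnfaip3 (chr10:19015361-19015660, minus strand): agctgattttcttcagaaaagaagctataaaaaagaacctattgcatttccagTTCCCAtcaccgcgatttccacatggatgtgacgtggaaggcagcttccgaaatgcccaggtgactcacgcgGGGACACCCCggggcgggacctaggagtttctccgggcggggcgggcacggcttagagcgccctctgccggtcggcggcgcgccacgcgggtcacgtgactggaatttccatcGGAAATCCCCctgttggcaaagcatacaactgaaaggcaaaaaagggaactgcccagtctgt
Runx3 (chr4:135120395-135120694, plus strand): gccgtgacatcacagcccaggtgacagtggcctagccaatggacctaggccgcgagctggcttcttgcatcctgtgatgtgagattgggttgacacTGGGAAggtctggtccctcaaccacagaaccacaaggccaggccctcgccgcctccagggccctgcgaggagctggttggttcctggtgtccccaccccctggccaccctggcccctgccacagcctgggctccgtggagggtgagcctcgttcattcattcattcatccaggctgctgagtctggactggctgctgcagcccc
The kappaB matches start 39 and 11 bases before the start site of Nfkb2, 106 before that of Nfkbie, 29 before that of Nfkbia and 125 and 12 before that of Tnfaip3, with a second overlapping match 38 bases before that of Nfkb2. TGGGAA starts 154 bases before the start site of Runx3 and, on the opposite strand, 197 before that of Tnfaip3. Of 18 genes looked up, which all rose, 17 had a promoter in the table and Heyl had none. No listed window of Dtx1, Asb2, Traf1, Il9r, Fyb2, Map3k14, Sspo, Ackr3, Tbc1d9 or Birc3 holds either set of letters, and those of Hspg2 and Cd80, which are not shown, hold TGGGAA alone. Of 32851 promoters of this length, 8.46% hold the kappaB consensus and 25.6% hold TGGGAA. Among 10964 tested genes with a promoter in the table, 12.3% hold the kappaB consensus in any of theirs, as do 16.7% of 1255 genes that rose and 13.4% of 1101 that fell. For TGGGAA the shares are 27.2% of genes tested, 29.2% of those that rose and 24.3% of those that fell. A match describes the letters of a window and shows no binding.

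Of the NF-kB target genes, 18 rose, 4 fell and 15 did not pass of 37 tested, with a median of 0.53. The counts were 16 and 2 in a fit of the 2 groups alone. The adaptor Traf1 had 281 and 307 CPM in doubly activated, 228 and 229 in NF-kB-activated and 74.7 and 68.4 in control libraries. Traf1 was higher than in control (log2 2.04 ± 0.08, adjusted p = 1.25e-08). The cytokine subunit gene Il12a had 50.8 and 50.2 CPM in doubly activated, 53.5 and 58.6 in NF-kB-activated and 13.2 and 13.3 in control libraries. Il12a was higher than in control (log2 1.93 ± 0.11, adjusted p = 2.98e-07). The B cell coactivator Pou2af1 had 1186 and 1104 CPM in doubly activated, 1499 and 1364 in NF-kB-activated and 475 and 510.3 in control libraries. Pou2af1 was higher than in control (log2 1.22 ± 0.09, adjusted p = 1.23e-06). For these 3 genes both activated groups lay far above control. Irf4, the transcription factor of activated B cells and plasma cells, showed another order. It had 426 and 565 CPM in doubly activated, 195 and 211 in NF-kB-activated and 242 and 197 in control libraries. Irf4 was higher than in control (log2 1.17 ± 0.14, adjusted p = 0.00014) and than in NF-kB-activated libraries (log2 1.29 ± 0.14, adjusted p = 0.00021). The costimulator Cd80 had 10.3 and 9.81 CPM in doubly activated, 11.9 and 11 in NF-kB-activated and 0.984 and 0.979 in control libraries. Cd80 was higher than in control (log2 3.35 ± 0.28, adjusted p = 5.15e-06). The death receptor Fas had 14.4 and 14.7 CPM in doubly activated and 5.10 and 5.17 CPM in control libraries (log2 1.50 ± 0.21, adjusted p = 0.000339). The survival gene Bcl2a1b, near-identical to its neighbours so that reads may be split among them, had 88.5 and 89.9 CPM in doubly activated, 55.4 and 54.5 in NF-kB-activated and 32.0 and 29.5 in control libraries. Bcl2a1b was higher than in control (log2 1.54 ± 0.11, adjusted p = 1.55e-06) and than in NF-kB-activated libraries (log2 0.70 ± 0.11, adjusted p = 0.00128). The activation marker Cd83 fell, with 84.8 and 73.1 CPM in doubly activated, 109.8 and 100.4 in NF-kB-activated and 179 and 188 in control libraries. Cd83 was lower than in control (log2 -1.21 ± 0.09, adjusted p = 2.30e-06).

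Marginal zone B cell genes rose at 12 of 25 members, 3 fell and 10 did not pass (median 0.55). Follicular B cell genes rose at 1, fell at 9 and did not pass at 7 of 17 (median -0.50). S1pr3, a sphingosine phosphate receptor of marginal zone cells, had 238 and 257 CPM in doubly activated, 91.0 and 74.1 in NF-kB-activated and 113 and 87.5 in control libraries. S1pr3 was higher than in control (log2 1.30 ± 0.13, adjusted p = 4.32e-05) and than in NF-kB-activated libraries (log2 1.58 ± 0.13, adjusted p = 3.90e-05). Its NF-kB-activated values reached into the control range, and both doubly activated values lay far above. The phosphatase Dusp16 had 198 and 224 CPM in doubly activated, 118 and 121 in NF-kB-activated and 89.9 and 80.5 in control libraries. Dusp16 was higher than in control (log2 1.31 ± 0.09, adjusted p = 8.90e-07) and than in NF-kB-activated libraries (log2 0.82 ± 0.09, adjusted p = 0.000116). Ahr, the aryl hydrocarbon receptor, had 64.6 and 79.9 CPM in doubly activated, 31.2 and 24.9 in NF-kB-activated and 25.8 and 19.0 in control libraries. Ahr was higher than in control (log2 1.69 ± 0.15, adjusted p = 2.01e-05) and than in NF-kB-activated libraries (log2 1.36 ± 0.15, adjusted p = 0.000239). The RNA sensor Tlr3 had 38.1 and 43.5 CPM in doubly activated, 16.2 and 15.2 in NF-kB-activated and 19.0 and 14.2 in control libraries. Tlr3 was higher than in control (log2 1.30 ± 0.16, adjusted p = 0.00014) and than in NF-kB-activated libraries (log2 1.38 ± 0.16, adjusted p = 0.000247). In these 4 genes, as in Dtx1, the doubly activated libraries lay above both other groups. For Dusp16 the NF-kB-activated values also lay above both control values, whereas for Dtx1 they overlapped.

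Other marginal zone genes were also high with the NIK allele alone. Tbc1d9, with a domain of Rab GTPase regulators, had 130.5 and 157 CPM in doubly activated, 129 and 91.9 in NF-kB-activated and 35.4 and 27.6 in control libraries. Tbc1d9 was higher than in control (log2 2.19 ± 0.17, adjusted p = 2.12e-05). The phosphatase Ptpn14 had 374 and 422 CPM in doubly activated, 349 and 307 in NF-kB-activated and 137 and 91.6 in control libraries. Ptpn14 was higher than in control (log2 1.80 ± 0.16, adjusted p = 4.68e-05). Mzb1, a chaperone of IgM assembly named for marginal zone and B1 cells, had 274 and 284 CPM in doubly activated, 251 and 221 in NF-kB-activated and 168 and 149 in control libraries. Mzb1 was higher than in control (log2 0.82 ± 0.09, adjusted p = 5.86e-05). Against the list, Lmo2, Itgb7 and Sox5 fell, the last with its call lost without doubly activated library 2 (adjusted p = 0.102). The transcriptional cofactor Lmo2 had 58.0 and 63.9 CPM in doubly activated, 132 and 141 in NF-kB-activated and 157 and 185 in control libraries. Lmo2 was lower than in control (log2 -1.49 ± 0.09, adjusted p = 5.68e-07) and than in NF-kB-activated libraries (log2 -1.16 ± 0.09, adjusted p = 1.43e-05). The integrin Itgb7 had 60.0 and 63.0 CPM in doubly activated, 127 and 146 in NF-kB-activated and 149.9 and 216 in control libraries. Itgb7 was lower than in control (log2 -1.57 ± 0.15, adjusted p = 5.19e-05) and than in NF-kB-activated libraries (log2 -1.15 ± 0.15, adjusted p = 0.000985).

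**Figure D3:**
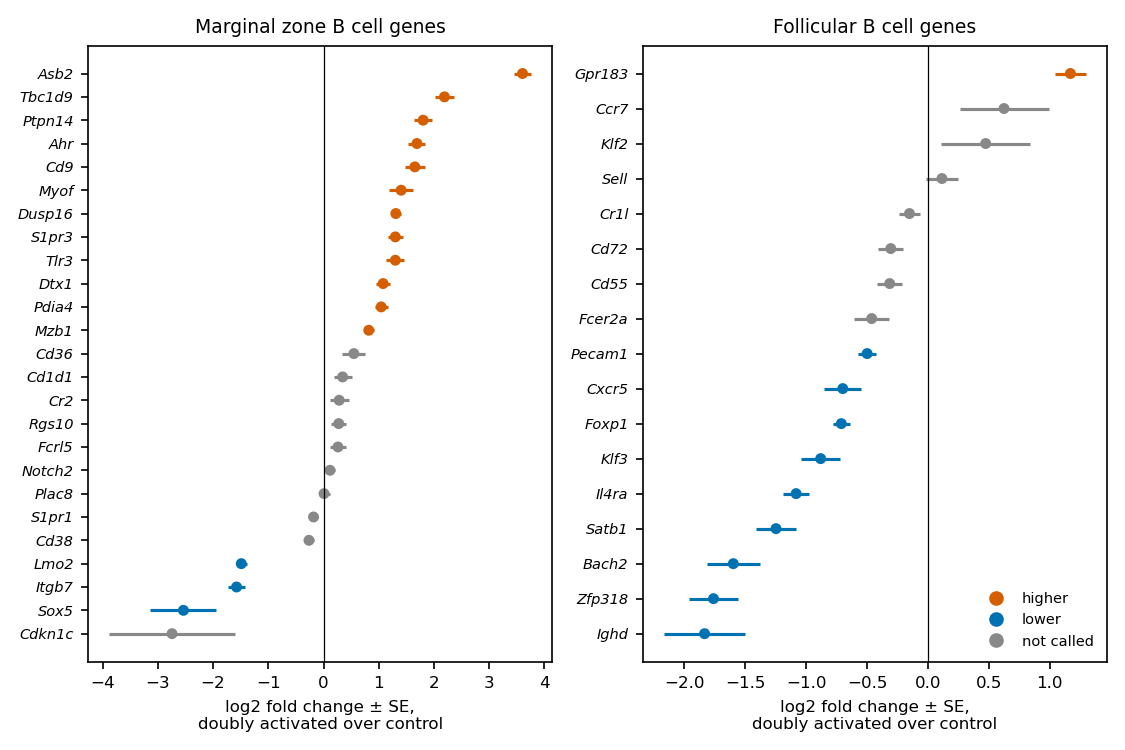
Log2 fold change ± SE of doubly activated over control for each tested member of the marginal zone list (left, 25 genes) and the follicular list (right, 17 genes); colour marks the call. In the left panel 12 genes lie right of 0 and are called, from Mzb1 to Asb2, and in the right panel Gpr183 is the one called rise beside 9 called falls.

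Follicular genes that fell included several transcription factors. Foxp1, a forkhead factor of mature B cells, had 295 and 302 CPM in doubly activated and 495 and 482 CPM in control libraries (log2 -0.71 ± 0.07, adjusted p = 2.50e-05). Satb1, a chromatin organiser, had 88.6 and 82.1 CPM in doubly activated and 178 and 228 CPM in control libraries (log2 -1.25 ± 0.16, adjusted p = 0.00048). Zfp318, needed for IgD expression, had 133 and 81.6 CPM in doubly activated, 196 and 215 in NF-kB-activated and 335 and 394 in control libraries. Zfp318 was lower than in control (log2 -1.76 ± 0.20, adjusted p = 0.000643). The IgD heavy chain gene Ighd ran beside it, at 486 and 232 CPM in doubly activated and 1142 and 1420.3 CPM in control libraries (log2 -1.83 ± 0.33, adjusted p = 0.0127), a call lost without control library 2 (adjusted p = 0.0686) and a log2 fold change of -2.47 without doubly activated library 1. Klf3, a zinc finger repressor, had 40.8 and 41.7 CPM in doubly activated and 63.2 and 88.5 CPM in control libraries (log2 -0.88 ± 0.16, adjusted p = 0.00219). The receptor Il4ra had 129 and 117 CPM in doubly activated, 178 and 195 in NF-kB-activated and 235 and 287 in control libraries. Il4ra was lower than in control (log2 -1.08 ± 0.11, adjusted p = 1.81e-05) and than in NF-kB-activated libraries (log2 -0.60 ± 0.11, adjusted p = 0.00303). Gpr183, the oxysterol receptor that guides B cells to outer follicles, rose, with 151 and 178 CPM in doubly activated and 64.1 and 81.9 CPM in control libraries (log2 1.17 ± 0.13, adjusted p = 5.75e-05).

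Receptors that place B cells within tissue moved both ways, 7 up and 7 down of 27 (median -0.49; 7 and 4 without doubly activated library 2). Cnr1, a cannabinoid receptor, had 50.001 and 36.7 CPM in doubly activated, 146 and 192 in NF-kB-activated and 0.246 and 0.218 in control libraries. It was 183-fold higher than in control (log2 7.51 ± 0.31, adjusted p = 4.45e-08) yet lower than with the NIK allele alone (log2 -1.96 ± 0.16, adjusted p = 2.64e-05). The chemokine scavenger Ackr3 had 245 and 324 CPM in doubly activated, 204 and 229.8 in NF-kB-activated and 9.53 and 6.64 in control libraries. Ackr3 was higher than in control (log2 5.14 ± 0.19, adjusted p = 9.66e-08). The lysophospholipid receptor Gpr34 had 22.2 and 25.3 CPM in doubly activated, 41.3 and 42.1 in NF-kB-activated and 4.06 and 2.72 in control libraries. Gpr34 was higher than in control (log2 2.81 ± 0.17, adjusted p = 4.45e-07) and lower than in NF-kB-activated libraries (log2 -0.81 ± 0.14, adjusted p = 0.00291). The lysophospholipid receptors Gpr174 and P2ry10 fell. Gpr174 had 57.2 and 51.3 CPM in doubly activated, 122 and 157 in NF-kB-activated and 138 and 118 in control libraries. Gpr174 was lower than in control (log2 -1.24 ± 0.13, adjusted p = 3.05e-05) and than in NF-kB-activated libraries (log2 -1.36 ± 0.13, adjusted p = 5.09e-05). P2ry10 had 94.3 and 93.9 CPM in doubly activated and 158 and 195 CPM in control libraries (log2 -0.91 ± 0.11, adjusted p = 0.0001).

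Of 14 RGS genes, which quench signals of such receptors, 3 rose and 0 fell (median 0.12), and 2 and 0 in a fit of the 2 groups alone. Rgs12 had 77.0 and 97.4 CPM in doubly activated, 76 and 62.3 in NF-kB-activated and 6.21 and 5.93 in control libraries. Rgs12 was higher than in control (log2 3.84 ± 0.15, adjusted p = 8.39e-09). Rgs3 had 79.7 and 88.3 CPM in doubly activated, 41.7 and 46.3 in NF-kB-activated and 45.8 and 41.7 in control libraries. Rgs3 was higher than in control (log2 0.94 ± 0.11, adjusted p = 6.58e-05) and than in NF-kB-activated libraries (log2 0.93 ± 0.11, adjusted p = 0.000206). Rgs1, an inducible member that restrains B cell migration, had 128 and 194 CPM in doubly activated, 1.94 and 2.25 in NF-kB-activated and 11.8 and 2.72 in control libraries (log2 4.49 ± 0.58, adjusted p = 0.00391 against control; log2 5.88 or 3.76 without control library 1 or 2). The 3 genes thus show 3 orders: Rgs12 high in both activated groups, Rgs3 higher in doubly activated than in both other groups, and Rgs1 higher still but apart between the control libraries.

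Integrin and adhesion genes fell more often than they rose, 10 against 4 of 29 (median -0.05), and Itgam and Vcam1, described with the macrophage markers, are among the falls. Cd44, a receptor for hyaluronan, had 44.3 and 48.2 CPM in doubly activated, 70.5 and 65.1 in NF-kB-activated and 74.2 and 72.9 in control libraries. Cd44 was lower than in control (log2 -0.67 ± 0.09, adjusted p = 0.000164) and than in NF-kB-activated libraries (log2 -0.55 ± 0.09, adjusted p = 0.0015). Icam2, a ligand of the integrin LFA-1, had 27.7 and 26.2 CPM in doubly activated and 46.9 and 61.1 CPM in control libraries (log2 -1.005 ± 0.14, adjusted p = 0.00029). Pecam1, an adhesion molecule of the immunoglobulin family, had 206 and 224 CPM in doubly activated and 300.1 and 308 CPM in control libraries (log2 -0.50 ± 0.08, adjusted p = 0.000608). Rises were seen in the integrin Itgb3, with 97.3 and 78.8 CPM in doubly activated, 130.2 and 149.97 in NF-kB-activated and 31.2 and 43.4 in control libraries. Itgb3 was higher than in control (log2 1.24 ± 0.16, adjusted p = 0.000281). Cdh17, a cadherin, had 61.0 and 74.9 CPM in doubly activated, 42.7 and 39.5 in NF-kB-activated and 43.6 and 36.1 in control libraries. Cdh17 was higher than in control (log2 0.77 ± 0.11, adjusted p = 0.000506) and than in NF-kB-activated libraries (log2 0.72 ± 0.11, adjusted p = 0.00162).

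B cell receptor signalling genes moved both ways, 7 up and 6 down of 30 (median -0.05), and 6 up and 9 down when scaled by library size alone. The counts were 6 and 3, 6 and 3 or 7 and 3 without doubly activated library 1 or 2 or control library 2. Cd81, a tetraspanin of B cells, had 283 and 321 CPM in doubly activated and 182 and 162 CPM in control libraries (log2 0.82 ± 0.09, adjusted p = 4.69e-05). The exchange factor Vav2 had 349.7 and 400.5 CPM in doubly activated and 243 and 244 CPM in control libraries (log2 0.62 ± 0.08, adjusted p = 0.00014). The kinase Blk had 823 and 850.3 CPM in doubly activated and 639 and 626 CPM in control libraries (log2 0.40 ± 0.08, adjusted p = 0.00237). The kinase Btk fell, with 176 and 172 CPM in doubly activated and 226 and 233 CPM in control libraries (log2 -0.40 ± 0.07, adjusted p = 0.00171). Of the inhibitory coreceptors and phosphatases, 5 rose and 6 fell of 27 (median -0.03). The counts were 3 and 7, 2 and 5 or 2 and 5 without doubly activated library 1 or 2 or control library 2, and 4 and 10 when scaled by library size alone. Fcgr2b, the inhibitory Fc receptor, had 106 and 104 CPM in doubly activated, 135 and 127 in NF-kB-activated and 238 and 252 in control libraries. Fcgr2b was lower than in control (log2 -1.22 ± 0.08, adjusted p = 4.71e-07). The collagen receptor Lair1 had 41.5 and 54.5 CPM in doubly activated, 22 and 21.2 in NF-kB-activated and 8.61 and 5.93 in control libraries. Lair1 was higher than in control (log2 2.73 ± 0.18, adjusted p = 7.66e-07) and than in NF-kB-activated libraries (log2 1.15 ± 0.16, adjusted p = 0.000835).

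Antigen presentation genes that passed the test were mostly higher in doubly activated cells. In the MHC class II list 8 of 15 rose and 0 fell (median 0.36), and in the MHC class I and peptide loading list 13 of 22 rose and 2 fell (median 0.39). The class I counts were 10 and 1, 10 and 0 or 12 and 1 without doubly activated library 1 or 2 or control library 1. The class II transactivator Ciita had 709 and 678 CPM in doubly activated, 761 and 768 in NF-kB-activated and 451 and 498 in control libraries. Ciita was higher than in control (log2 0.55 ± 0.08, adjusted p = 0.000362). H2-DMb2, a chain of the peptide exchange factor, had 1272 and 1381 CPM in doubly activated, 1325 and 1306 in NF-kB-activated and 839 and 952 in control libraries. H2-DMb2 was higher than in control (log2 0.57 ± 0.09, adjusted p = 0.00101). The lysosomal protease Ctss had 594 and 590.4 CPM in doubly activated and 426 and 406 CPM in control libraries (log2 0.51 ± 0.08, adjusted p = 0.000661). For Ciita and H2-DMb2 the 2 activated groups stood close together, both above control. Nlrc5, the class I transactivator, had 418 and 380.1 CPM in doubly activated, 296 and 294 in NF-kB-activated and 208 and 216 in control libraries. Nlrc5 was higher than in control (log2 0.91 ± 0.08, adjusted p = 9.08e-06) and than in NF-kB-activated libraries (log2 0.44 ± 0.08, adjusted p = 0.0042). H2-Q4 followed the same order, with 1428 and 1561 CPM in doubly activated, 1011 and 1036 in NF-kB-activated and 806 and 836 in control libraries. H2-Q4 was higher than in control (log2 0.86 ± 0.08, adjusted p = 1.08e-05) and than in NF-kB-activated libraries (log2 0.55 ± 0.08, adjusted p = 0.000873). The class I heavy chain H2-K1 had 3669 and 3916 CPM in doubly activated and 2445 and 2799 CPM in control libraries (log2 0.53 ± 0.09, adjusted p = 0.00146). Class I genes are closely related in sequence, so counts may be split among them.

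Interferon response genes rose at 13 of 32 members and fell at 0 (median 0.37; 12 and 1 without doubly activated library 1). The guanylate binding protein Gbp2 had 60.3 and 61.2 CPM in doubly activated, 38.6 and 29.7 in NF-kB-activated and 26.1 and 23.9 in control libraries. Gbp2 was higher than in control (log2 1.28 ± 0.11, adjusted p = 7.85e-06) and than in NF-kB-activated libraries (log2 0.83 ± 0.11, adjusted p = 0.000473). The RNA-sensing synthetase Oas1a had 49.3 and 49.0 CPM in doubly activated and 22.8 and 23.6 CPM in control libraries (log2 1.08 ± 0.11, adjusted p = 2.60e-05). Gbp7 had 111 and 106 CPM in doubly activated and 63.3 and 55.5 CPM in control libraries (log2 0.87 ± 0.09, adjusted p = 3.04e-05). Every doubly activated value of these 3 genes exceeded both control values, which a choice in order of p favours.

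Costimulators and checkpoints moved both ways, 5 up and 4 down of 24 (median 0.06), and 4 up and 6 down when scaled by library size alone. Cd274, the checkpoint ligand PD-L1, had 317 and 417 CPM in doubly activated, 146 and 154 in NF-kB-activated and 109.7 and 86.9 in control libraries. Cd274 was higher than in control (log2 1.90 ± 0.14, adjusted p = 3.55e-06) and than in NF-kB-activated libraries (log2 1.29 ± 0.13, adjusted p = 0.000152). Vsir, the checkpoint VISTA, fell, with 6.01 and 6.48 CPM in doubly activated, 18.8 and 14.5 in NF-kB-activated and 16.5 and 22.5 in control libraries. Vsir was lower than in control (log2 -1.65 ± 0.18, adjusted p = 4.81e-05) and than in NF-kB-activated libraries (log2 -1.42 ± 0.18, adjusted p = 0.000416). While Cd80 rose, as given above, the other B7 costimulator Cd86 had 33.7 and 32.0 CPM in doubly activated and 49.0 and 44.5 CPM in control libraries (log2 -0.51 ± 0.10, adjusted p = 0.00395). Of TNF family ligands and receptors 6 rose and 5 fell of 34 (median 0.00), and 5 and 7 when scaled by library size alone or 6 and 8 without control library 1. Taci, encoded by Tnfrsf13b and also a receptor of Baff, had 127 and 137 CPM in doubly activated, 119 and 131 in NF-kB-activated and 251 and 236 in control libraries. Tnfrsf13b was lower than in control (log2 -0.88 ± 0.08, adjusted p = 1.00e-05). Ltb, encoding lymphotoxin beta, had 689 and 728 CPM in doubly activated and 400.1 and 526 CPM in control libraries (log2 0.61 ± 0.12, adjusted p = 0.00415).

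Among cytokines and their receptors, 10 rose and 9 fell of 42 (median -0.17), and 10 and 12 when scaled by library size alone. Il9r, the receptor of interleukin 9, had 2611 and 2724 CPM in doubly activated, 2804 and 2966 in NF-kB-activated and 197 and 192 in control libraries. It was 13.7-fold higher than in control (log2 3.78 ± 0.08, adjusted p = 4.90e-11) and its level with both alleles did not pass a test against the NIK allele alone (log2 -0.11 ± 0.07, adjusted p = 0.354). Il10, an inhibitory cytokine of regulatory B cells, had 4.18 and 6.28 CPM in doubly activated, 0.681 and 0.210 in NF-kB-activated and 0.184 and 0.272 in control libraries. Il10 was higher than in control (log2 4.46 ± 0.42, adjusted p = 1.53e-05). Its receptor Il10ra fell, with 137 and 128 CPM in doubly activated, 116 and 116 in NF-kB-activated and 318 and 363 in control libraries. Il10ra was lower than in control (log2 -1.36 ± 0.09, adjusted p = 5.76e-07). Il5ra, a receptor of innate-like B cells, had 2.45 and 3.66 CPM in doubly activated, 8.60 and 7.23 in NF-kB-activated and 24.7 and 18.9 in control libraries. Il5ra was lower than in control (log2 -2.84 ± 0.21, adjusted p = 2.19e-06) and than in NF-kB-activated libraries (log2 -1.38 ± 0.22, adjusted p = 0.00162). Of 16 chemokine ligands tested 3 rose and 0 fell (median 0.00), with 1 and 0 or 3 and 1 without doubly activated library 2 or control library 1.

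Many cell cycle genes were lower in doubly activated than in control precursors. In DNA replication 2 rose and 18 fell of 39 (median -0.48), and 2 and 11 without doubly activated library 2. In mitosis and spindle 0 rose and 13 fell of 34 (median -0.81), a count of 0 and 6, 0 and 6, 0 and 6 or 0 and 25 without doubly activated library 1 or 2 or control library 1 or 2, and 0 and 21 when scaled by library size alone. Among G1 cyclins, kinases and inhibitors 1 rose and 11 fell of 27 (median -0.43). The summed replication genes stood at 1651 and 1590 CPM in doubly activated, 1613 and 1450 in NF-kB-activated and 2078 and 1956 in control libraries. Mitosis genes stood at 558 and 528, 563 and 421, and 1054 and 741 CPM in the same order. Against NF-kB-activated libraries, rises and falls were 4 and 1 for replication, 2 and 0 for mitosis and 1 and 7 for G1 genes. The ligase Lig1, which seals replicated strands, had 23.3 and 19.2 CPM in doubly activated and 49.3 and 42.7 CPM in control libraries (log2 -1.11 ± 0.14, adjusted p = 0.000132). Ccnb2, a mitotic cyclin, had 4.68 and 5.36 CPM in doubly activated and 12.9 and 9.52 CPM in control libraries (log2 -1.16 ± 0.18, adjusted p = 0.000649). The G1 cyclin Ccnd2 had 82.4 and 54.4 CPM in doubly activated, 146 and 124 in NF-kB-activated and 177 and 164 in control libraries. Ccnd2 was lower than in control (log2 -1.32 ± 0.17, adjusted p = 0.000558). The kinase inhibitor Cdkn2d fell as well, with 8.57 and 8.37 CPM in doubly activated and 19.7 and 25.3 CPM in control libraries (log2 -1.41 ± 0.17, adjusted p = 0.000109). Tk1, thymidine kinase, went against its list, with 116 and 119 CPM in doubly activated, 109 and 95.4 in NF-kB-activated and 55.7 and 49.2 in control libraries. Tk1 was higher than in control (log2 1.16 ± 0.09, adjusted p = 3.03e-06).

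In the Myc network 3 rose and 3 fell of 12 (median 0.08; 2 and 1 without doubly activated library 2), and beside Myc itself the antagonist Mxd1 had 45.7 and 55.2 CPM in doubly activated and 23.6 and 25.3 CPM in control libraries (log2 1.04 ± 0.13, adjusted p = 0.000146). Bcl2 family genes moved both ways, 4 up and 5 down of 20 (median 0.11), and 4 up and 2 down with an offset for effective transcript length. The counts were 4 and 3, 4 and 2 or 5 and 3 without doubly activated library 1 or 2 or control library 2. The death gene Pmaip1, encoding Noxa, had 79.6 and 112 CPM in doubly activated, 17.8 and 20.01 in NF-kB-activated and 31.5 and 17.6 in control libraries. Pmaip1 was higher than in control (log2 1.97 ± 0.26, adjusted p = 0.001) and than in NF-kB-activated libraries (log2 2.34 ± 0.26, adjusted p = 0.000958). Bid, another death gene, had 143 and 146 CPM in doubly activated and 106 and 79.0 CPM in control libraries (log2 0.64 ± 0.11, adjusted p = 0.00142). The survival gene Bcl2 had 169 and 169.6 CPM in doubly activated, 289 and 288 in NF-kB-activated and 219.9 and 197 in control libraries. Its difference from NF-kB-activated libraries was called (log2 -0.77 ± 0.08, adjusted p = 9.91e-05), while that from control (log2 -0.30 ± 0.08, adjusted p = 0.0208) was lost without doubly activated library 1 (adjusted p = 0.0815) or 2 (0.108) or control library 1 (0.108).

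B lineage transcription factors fell at 11 and rose at 4 of 31 members (median -0.12). Mef2c had 269.8 and 233 CPM in doubly activated, 285 and 306 in NF-kB-activated and 467 and 483 in control libraries. Mef2c was lower than in control (log2 -0.92 ± 0.08, adjusted p = 1.17e-05). Id3, an inhibitor of E proteins, had 13.0 and 11.6 CPM in doubly activated, 28.8 and 30.1 in NF-kB-activated and 33.3 and 40.9 in control libraries. Id3 was lower than in control (log2 -1.59 ± 0.15, adjusted p = 1.69e-05) and than in NF-kB-activated libraries (log2 -1.26 ± 0.15, adjusted p = 0.000291). Fli1, an Ets factor, had 92.6 and 88.5 CPM in doubly activated and 139.6 and 178 CPM in control libraries (log2 -0.81 ± 0.11, adjusted p = 0.000197). The factors Pax5 and Ebf1, which establish B cell identity, were not called, with Pax5 at 207 and 229 CPM in doubly activated and 251 and 256 CPM in control libraries and Ebf1 at 337 and 358 CPM in doubly activated and 351 and 313 CPM in control libraries. In the B cell identity list 3 rose and 5 fell of 15 (median -0.17; 3 and 3 without control library 2), among them Vpreb3, a protein of the immature receptor complex, with 12.3 and 10.01 CPM in doubly activated and 31.3 and 33.2 CPM in control libraries (log2 -1.53 ± 0.14, adjusted p = 8.96e-06).

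Of 24 myeloid transcription factors 5 rose and 2 fell (median 0.14), and 3 and 1, 5 and 4 or 3 and 0 without doubly activated library 2 or control library 1 or 2. Zbtb46, a transcription factor of classical dendritic cells, had 27.5 and 30.2 CPM in doubly activated, 39.5 and 41.9 in NF-kB-activated and 1.60 and 3.16 in control libraries. Zbtb46 was higher than in control (log2 3.58 ± 0.22, adjusted p = 4.91e-07). The dendritic markers Flt3 and Xcr1 were not called. Flt3 had 6.35 and 7.72 CPM in doubly activated and 3.32 and 5.98 CPM in control libraries, and Xcr1 had 1.34 and 0.850 CPM in doubly activated and 1.48 and 1.36 CPM in control libraries. Of 10 dendritic markers tested 2, Zbtb46 and Fscn1, rose (median 0.08). Fscn1 had a log2 fold change of 4.67 or 7.25 without control library 1 or 2. The 12 dendritic markers summed to 185 and 218 CPM in doubly activated and 27.7 and 55.9 CPM in control libraries. In NF-kB-activated libraries they summed to 250 and 237 CPM. Spic, a factor of red pulp macrophages, had 31.0 and 31.5 CPM in doubly activated, 27.7 and 25.7 in NF-kB-activated and 11.7 and 17.5 in control libraries. Spic was higher than in control (log2 1.09 ± 0.15, adjusted p = 0.000306). Egr2, a zinc finger factor induced by antigen receptor signals, had 22 and 24.5 CPM in doubly activated, 6.92 and 6.23 in NF-kB-activated and 9.59 and 8.65 in control libraries. Egr2 was higher than in control (log2 1.35 ± 0.20, adjusted p = 0.000501) and than in NF-kB-activated libraries (log2 1.82 ± 0.21, adjusted p = 0.000177).

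Plasma cell genes rose at 5 and fell at 5 of 19 members (median -0.08), while without doubly activated library 1, 2 or control library 2 the counts were 5 and 1, 5 and 0 and 5 and 1. Prdm1, encoding the plasma cell factor Blimp-1, had 17.8 and 20.1 CPM in doubly activated, 13.1 and 6.70 in NF-kB-activated and 3.01 and 4.79 in control libraries. Prdm1 was higher than in control (log2 2.26 ± 0.33, adjusted p = 0.00205). The elongation factor Ell2, which favours secreted antibody, had 64.1 and 62.2 CPM in doubly activated and 44.3 and 42.9 CPM in control libraries (log2 0.53 ± 0.09, adjusted p = 0.0012). Sdc1 and Jchain were not called. Sdc1, encoding syndecan, had 2.34 and 2.09 CPM in doubly activated and 2.83 and 9.30 CPM in control libraries. Jchain, the joining chain of secreted antibody, had 66.2 and 65.5 CPM in doubly activated and 19.4 and 60.5 CPM in control libraries. The IgA constant gene Igha had 3.12 and 4.25 CPM in doubly activated and 32.0 and 187 CPM in control libraries (log2 -4.91 ± 1.07, adjusted p = 0.0314). The control value of Igha comes mostly from control library 2. The difference was -5.68 or -3.13 on the log2 scale without control library 1 or 2, and the call was lost without doubly activated library 1 or 2 (adjusted p = 0.154 and 0.175). In germinal centre and diversification genes 2 rose and 5 fell of 22 (median -0.49), and 1 and 4, 1 and 3, 2 and 10 or 1 and 3 without doubly activated library 1 or 2 or control library 1 or 2.

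AP-1 and immediate early genes showed the highest median of all lists, 1.11, with 15 of 29 members higher, 2 lower and 12 not passing. The count was 9 and 2 without doubly activated library 2 and 8 and 2 in a fit of the 2 groups alone. Their summed level was 6566 and 10107 CPM in doubly activated, 2403 and 2511 in NF-kB-activated and 4715 and 3429 in control libraries, so it varied within groups as well as between them. Maff, a small Maf protein, had 16.4 and 32.0 CPM in doubly activated, 4.72 and 4.61 in NF-kB-activated and 2.52 and 2.28 in control libraries. Maff was higher than in control (log2 3.33 ± 0.32, adjusted p = 1.66e-05) and than in NF-kB-activated libraries (log2 2.37 ± 0.30, adjusted p = 0.000372). Mafk, a related factor, had 155 and 229 CPM in doubly activated, 54.3 and 57.0 in NF-kB-activated and 72.1 and 65.7 in control libraries. Mafk was higher than in control (log2 1.48 ± 0.15, adjusted p = 7.03e-05) and than in NF-kB-activated libraries (log2 1.78 ± 0.15, adjusted p = 6.75e-05). The nuclear receptor Nr4a2 had 15.8 and 25.3 CPM in doubly activated, 0.262 and 0.681 in NF-kB-activated and 1.78 and 1.03 in control libraries. Nr4a2 was higher than in control (log2 3.87 ± 0.47, adjusted p = 0.00013). Klf6, a zinc finger factor, had 376 and 631 CPM in doubly activated, 57.5 and 65.5 in NF-kB-activated and 145 and 106 in control libraries. Klf6 was higher than in control (log2 2.003 ± 0.27, adjusted p = 0.0025) and than in NF-kB-activated libraries (log2 3.03 ± 0.28, adjusted p = 0.00102). In these 4 genes both control libraries lay below both doubly activated libraries, a separation that a choice by p favours.

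Other members of that list split the control libraries. Atf3, a stress-induced factor, had 44.0 and 75.8 CPM in doubly activated, 1.52 and 1.15 in NF-kB-activated and 1.23 and 0.435 in control libraries (log2 6.19 ± 0.42, adjusted p = 6.66e-06 against control, with log2 7.08 or 5.59 without control library 1 or 2). Fosb had 556 and 1042 CPM in doubly activated, 5.03 and 7.86 in NF-kB-activated and 182 and 29.6 in control libraries, and its difference from control did not pass (log2 2.92 ± 0.86, adjusted p = 0.0764). It was called without control library 1 (log2 4.75, adjusted p = 0.00526) or 2 (log2 2.13, adjusted p = 0.0455) and by DESeq2. Against the list, Btg2, an inhibitor of proliferation, had 176 and 135 CPM in doubly activated and 277 and 275 CPM in control libraries (log2 -0.83 ± 0.11, adjusted p = 0.000156). Ier2, another gene of this list, had 43.5 and 55.1 CPM in doubly activated and 96.2 and 80.5 CPM in control libraries (log2 -0.84 ± 0.14, adjusted p = 0.00103). Heat shock genes moved with the immediate early genes in the control libraries. Hspa1a, an inducible chaperone, had 126 and 255 CPM in doubly activated, 0.734 and 6.70 in NF-kB-activated and 234 and 3.05 in control libraries. Of 20 heat shock genes 3 rose and 0 fell (median 0.24; 8 and 0 or 3 and 1 without control library 1 or 2), and their part in the immediate early result was not tested. The constitutive chaperone Hsp90ab1 had 2861 and 3293 CPM in doubly activated, 1808 and 1968 in NF-kB-activated and 2216 and 1815 in control libraries. Hsp90ab1 was higher than in control (log2 0.61 ± 0.11, adjusted p = 0.00146) and than in NF-kB-activated libraries (log2 0.70 ± 0.11, adjusted p = 0.00117).

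**Figure D4:**
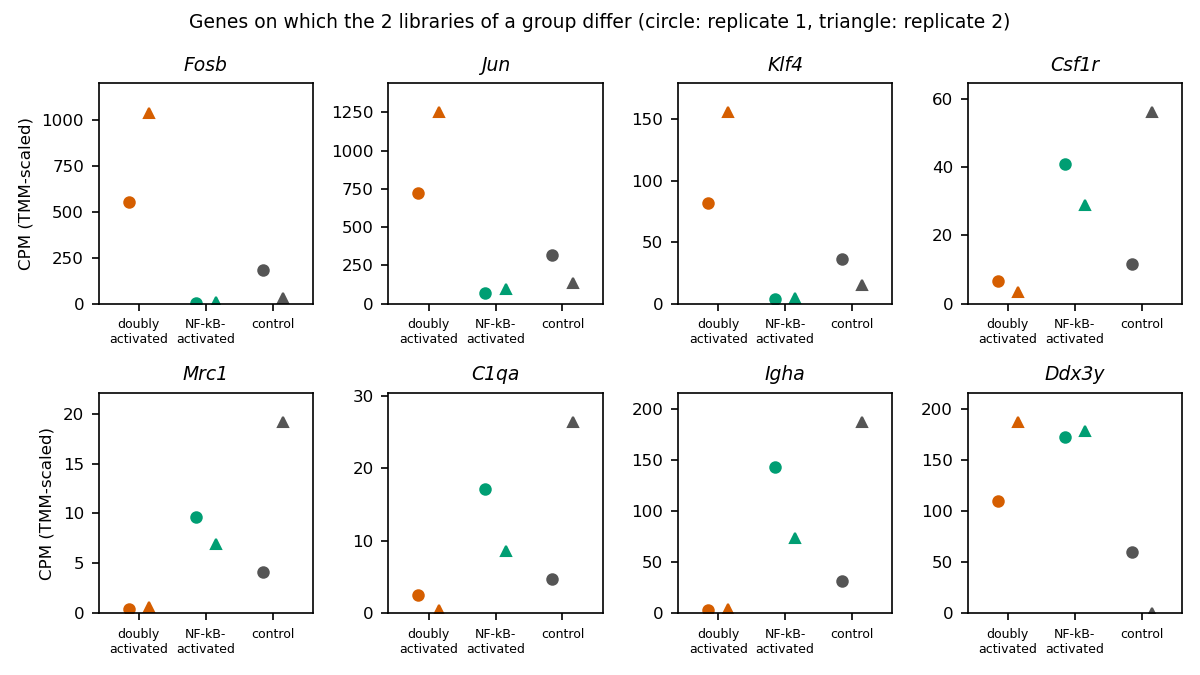
Levels in CPM on the y axis of 8 genes for which libraries of 1 group lie apart (circle, replicate 1; triangle, replicate 2), with doubly activated, NF-kB-activated and control precursors from left to right. Fosb, Jun and Klf4 are highest in doubly activated library 2 and lowest in NF-kB-activated libraries, Csf1r, Mrc1, C1qa and Igha are highest in control library 2 and lowest in doubly activated libraries, and Ddx3y is near 0 in control library 2.

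Cholesterol synthesis and uptake genes fell at 14 of 31 members and rose at 1 (median -0.43; 0 and 10, 0 and 9 or 0 and 16, rises given before falls, without doubly activated library 1 or 2 or control library 1). Their master regulator Srebf2 had 211 and 233 CPM in doubly activated, 222 and 239.7 in NF-kB-activated and 376 and 470.5 in control libraries. Srebf2 was lower than in control (log2 -0.93 ± 0.11, adjusted p = 5.75e-05). Idi1, an enzyme of isoprenoid synthesis, had 14.1 and 14.5 CPM in doubly activated and 28.8 and 28.0 CPM in control libraries (log2 -0.99 ± 0.11, adjusted p = 7.24e-05). The cholesterol exporter Abca1 was lower too, with 41.7 and 28.6 CPM in doubly activated, 114 and 116 in NF-kB-activated and 149.7 and 196 in control libraries. Abca1 was lower than in control (log2 -2.29 ± 0.19, adjusted p = 3.50e-05) and than in NF-kB-activated libraries (log2 -1.70 ± 0.18, adjusted p = 0.000524). Pltp, a phospholipid transfer protein, had 6.29 and 7.85 CPM in doubly activated, 2.88 and 1.99 in NF-kB-activated and 20.3 and 36.1 in control libraries. Pltp was lower than in control (log2 -1.999 ± 0.29, adjusted p = 0.000406).

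In ATF4 targets and serine synthesis 5 rose and 4 fell of 22 (median 0.21). The counts were 6 and 2, 5 and 1, 6 and 2 or 5 and 2 without doubly activated library 1 or 2 or control library 1 or 2, and 5 and 0 in a fit of the 2 groups alone. Sesn2, a stress-induced leucine sensor, had 34.0 and 34.9 CPM in doubly activated, 19.8 and 21 in NF-kB-activated and 13.7 and 17.5 in control libraries. Sesn2 was higher than in control (log2 1.14 ± 0.11, adjusted p = 2.35e-05) and than in NF-kB-activated libraries (log2 0.75 ± 0.11, adjusted p = 0.00106). Phgdh, the first enzyme of serine synthesis, had 105 and 114 CPM in doubly activated, 76.3 and 62.3 in NF-kB-activated and 74.2 and 75.4 in control libraries. Phgdh was higher than in control (log2 0.55 ± 0.10, adjusted p = 0.00205) and than in NF-kB-activated libraries (log2 0.66 ± 0.10, adjusted p = 0.00123). Of glycolysis genes 5 rose and 1 fell of 24 (median 0.08), and 5 and 0, 1 and 0 or 5 and 0 without doubly activated library 1 or 2 or control library 2. The glucose transporter Slc2a3 had 111 and 114 CPM in doubly activated and 79.0 and 70.2 CPM in control libraries (log2 0.60 ± 0.10, adjusted p = 0.000816). Of nuclear genes of the respiratory chain 1 of 29 was called, as higher (median 0.01), with 0 called without doubly activated library 2 and 1 called as lower without control library 1 or when scaled by library size alone. Cytosolic ribosomal protein genes rose at 9 of 36 (median 0.24), with 0 and 0 or 4 and 0 without doubly activated library 2 or control library 1. Toll-like receptors and partners moved both ways, 5 up and 4 down of 24 (median -0.01; 3 and 3 or 1 and 3 without doubly activated library 1 or 2), with Tlr1, a receptor of bacterial lipoproteins, at 160.0 and 148 CPM in doubly activated and 243 and 231 CPM in control libraries (log2 -0.62 ± 0.07, adjusted p = 9.49e-05).

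**Figure D5:**
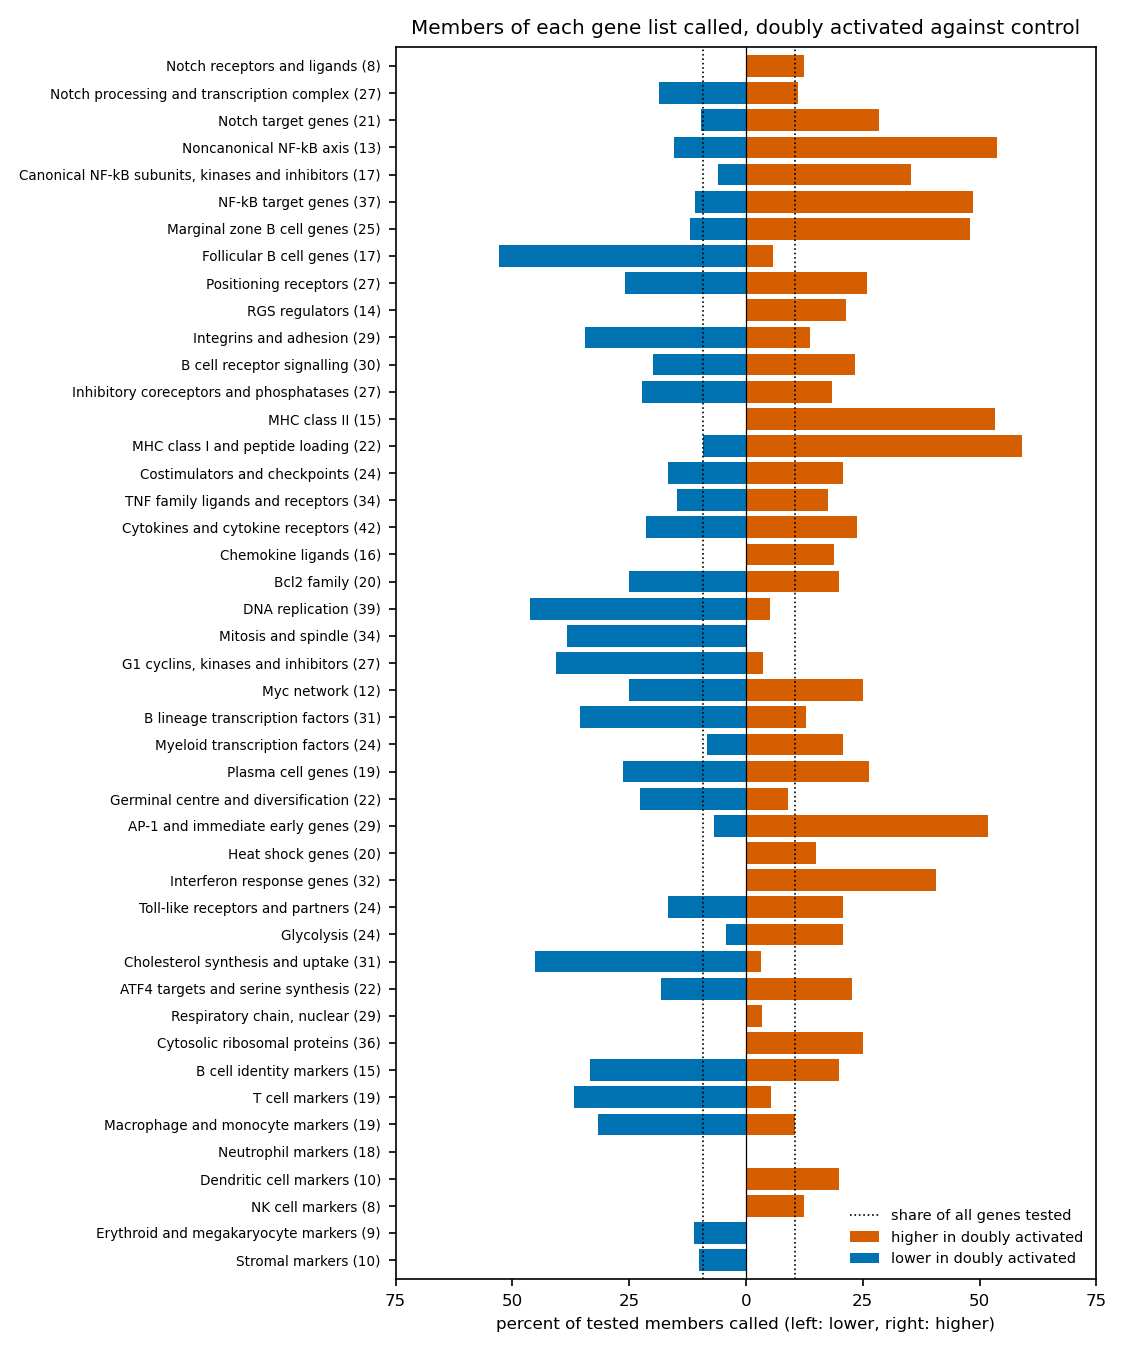
Share of the tested members of each gene list called higher (orange, right) or lower (blue, left) in doubly activated than in control precursors, on the x axis in percent, with the number tested in brackets; dotted lines mark the shares over all genes, 10.5% and 9.29%. The bars furthest right are those of MHC class I, noncanonical NF-kB, MHC class II, immediate early, NF-kB target and marginal zone genes, and those furthest left are of follicular, replication and cholesterol genes.

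In the 4 libraries each list of markers of non-B cells summed to at most 315 CPM, against at least 18029 CPM for the B cell identity list. Of 19 macrophage and monocyte markers 2 rose and 6 fell (median -2.73), and 2 and 3 or 2 and 11 without doubly activated library 2 or control library 1. The defining marker Csf1r had 6.63 and 3.40 CPM in doubly activated and 11.5 and 56.2 CPM in control libraries, and the complement gene C1qa had 2.56 and 0.458 CPM in doubly activated and 4.67 and 26.4 CPM in control libraries. Both are higher in control library 2 than in any other of the 4. Ms4a7, a macrophage marker, went the other way, with 17.5 and 20.7 CPM in doubly activated and 7.75 and 6.47 CPM in control libraries (log2 1.43 ± 0.26, adjusted p = 0.00234). T cell markers rose at 1 and fell at 7 of 19 members (median -0.89), and 1 and 3 or 1 and 4 without doubly activated library 2 or control library 2. Cd3e had 2.28 and 1.37 CPM in doubly activated and 1.72 and 3.59 CPM in control libraries. The kinase Zap70, a T cell gene that rose, had 16.8 and 18.8 CPM in doubly activated, 14.8 and 14.9 in NF-kB-activated and 7.07 and 7.02 in control libraries (log2 1.34 ± 0.25, adjusted p = 0.00277 against control). The cytotoxic effector Prf1 had 17.7 and 17.2 CPM in doubly activated, 15 and 20.3 in NF-kB-activated and 4.0 and 4.62 in control libraries. Prf1 was higher than in control (log2 2.01 ± 0.20, adjusted p = 2.21e-05). Neutrophil markers summed to 18.2 and 10.9 CPM in doubly activated, 561 and 171 in NF-kB-activated and 10.8 and 36.1 in control libraries, and edgeR called 0 of 18 against control (0 at an unadjusted p under 0.05, 1 lower by DESeq2, and 2 lower without control library 1). The part of neutrophil RNA in the differences from NF-kB-activated libraries was not tested. In the NK cell list Prf1 was the 1 call of 8 tested, with 1 fall beside it without control library 1. In the stromal list Pecam1, which B cells express too, was the 1 call of 10. In the erythroid and megakaryocyte list Itga2b was the 1 call of 9, lower and lost without doubly activated library 1 or 2 or control library 1.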

How the data were processed

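RNA of 10 libraries was measured by sequencing, and 4 of them, with 2 NF-kB-activated libraries beside them, are described here. The authors deposited 1 table per library of 88198 transcripts with estimated counts, made with kallisto 0.44.0 and build mm10 per the submitters' processing notes, and TPM values per the file headers. No source used here gives the release of the transcripts. Estimated counts were summed per gene through the mouse annotation (GRCm38), which matched 86031 transcripts to 30205 genes and left 1.09% to 1.38% of counts unmatched, and were then rounded. Depth was 16380889 to 23102081 counts. Intervals of counts, and floors, cover counting error alone.

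The test was the robust quasi-likelihood test of edgeR 4.0.16 in R 4.3.3 (TMM, filterByExpr with a minimum count of 10), with all 10 libraries in 1 model of 5 groups, 5 residual degrees of freedom and Benjamini-Hochberg adjustment over 15583 genes. The SE is the log2 fold change divided by the square root of F. Alternatives were other scalings, filters, DESeq2 1.42.0, fewer groups, an effective length offset, a replicate block and leaving out each library. Libraries with the same replicate number are not said to share an animal, and the numbers did not pair them.

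Genes were named by a rule: the 12 largest called rises and falls without overlap between groups whose higher mean reached 5 CPM, the allele and marker genes, and up to 8 members of each list in order of p. Some genes that the rule names are not reported here. Ksr1, Chka, Serpina3g, Myb, Ttn, Scd1 and Sorl1, and list members outside the first 8 or not called, were chosen after their values were seen. The comparison and the 45 gene lists were chosen with earlier results of these data known. Promoters come from RefSeq (GRCm38.p6).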

Additional observations from a re-analysis of the deposited data

How the results depend on the processing

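Against control, 3089 genes were called, and from 1624 (without doubly activated library 2) to 3081 with 1 library left out. A fit of the 2 groups alone called 1983, a replicate block 2794, an effective length offset 2247 and DESeq2 3005. Higher genes made up 53.1% of the calls, but 41.7% when scaled by library size alone, with 1338 higher and 1873 lower. Against NF-kB-activated libraries, 2165 genes were called, 1391 with an effective length offset, 1764 with a replicate block and from 725 (without doubly activated library 2) to 1710 with 1 library left out, with 1070 and 975 without NF-kB-activated library 1 or 2. Scaling by library size alone gave 783 higher and 1521 lower, 34.0% against 47.6% higher. The called genes that the text names were mostly picked by size of change or small p. Their stability does not stand for that of all calls. Of the 3089 calls against control, a fit of the 2 groups alone kept 1939. Of 154 called genes the text names, 133 kept their direction and call under every alternative run; 17 calls were lost in the 2 groups alone, and with the replicate block 5 were lost and 1 gained. The log2 fold changes of Cr2 (-0.0014 without control library 2 to 0.63 without control library 1), Hes1 (-0.17 without control library 2 to 0.46 without control library 1) and Notch1 (-0.0085 without control library 1 to 0.18 without control library 2) turned sign. None of these 3 was called with every library in, while Cr2 and Hes1 were called without control library 1. In each case the cause was not tested.

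Libraries with the same replicate number did not deviate together: the correlation across 9441 genes was -0.07 between doubly activated and control libraries and -0.07 between doubly activated and NF-kB-activated libraries, so the replicate block is given here alone. With 2 libraries a group, small differences and genes of low level are the least certain, and a gene that missed the threshold is not shown to be equal.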
